A study of Homo sapiens with 2 samples.

Results

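RNA immunoprecipitated from T47D cells by an antibody to IMP1, or by control IgG, was examined for the mRNAs of MHC antigen presentation genes. The 9 genes were HLA-B, HLA-C, HLA-E, HLA-F, B2M and TAP1 of the class I pathway and HLA-DRA, HLA-DRB1 and CD74 of the class II pathway, out of 18781 genes in the deposited table. They were chosen by gene name, from a list drawn up with the values of both libraries already known, so their ratios are given as a description with no test. All 9 are listed, with 1 row each. The cells were T47D, an established line of luminal breast cancer with the genotype WT and no treatment other than the antibody used on the lysate. The group called IMP1 here is the precipitate of the anti-IMP1 antibody, and the group called IgG is the precipitate of normal IgG, each on protein A beads and each with 1 library. IMP1 is an RNA-binding protein that takes part in the localization, stability and translation of its target RNAs. The comparison was made to find the RNAs that IMP1 holds.

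Class I molecules show peptides from inside the cell to CD8 T cells and natural killer cells, and almost every nucleated cell makes them. Their heavy chains, encoded by the HLA genes, pair with the small protein beta-2-microglobulin (B2M) and are loaded with peptides that TAP pumps into the endoplasmic reticulum. Class II molecules show peptides from endosomes to CD4 T cells, and their chains are kept from early loading by the invariant chain (CD74). They are made mainly by professional antigen-presenting cells, and epithelial cells can make them after exposure to interferon gamma.

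Promoters of both classes share a conserved module that ends in a Y box, and class I promoters also carry an interferon-stimulated response element. Of the 9 genes, 7 had an entry in the RefSeq promoter table (GRCh38.p14), and HLA-E and HLA-DRA had none. Both strands of the 250 bases before each start were searched for the letters ATTGG (the core of the Y box) and for GAAANNGAA or GAANNGAAA (the core of an interferon-stimulated response element, forms that may overlap each other). Each of the 7 genes held both in at least 1 entry, and the second of the 2 entries of TAP1 held neither. Among the 27305 genes listed there, 37.0% held ATTGG in at least 1 entry and 15.0% an interferon motif, and among the 35116 promoters 32.0% and 12.4% did. The promoters of TAP2 and HLA-DPA1, searched as well, held no ATTGG. A match is only a description of the letters, and which ATTGG is the Y box of the module was not examined. The promoters of a class I heavy chain, its light chain, a class II chain and the invariant chain are shown because they stand for the parts of both pathways whose mRNA levels are compared here. Capitals mark the 2 kinds of motif, or their reverse complements, on the strand of the gene. The stretches lie at chr6:31357180-31357429 (minus strand) for HLA-B, chr15:44711267-44711516 (plus strand) for B2M, chr6:32589849-32590098 (minus strand) for HLA-DRB1 and chr5:150412911-150413160 (minus strand) for CD74, all in GRCh38.p14.
HLA-B: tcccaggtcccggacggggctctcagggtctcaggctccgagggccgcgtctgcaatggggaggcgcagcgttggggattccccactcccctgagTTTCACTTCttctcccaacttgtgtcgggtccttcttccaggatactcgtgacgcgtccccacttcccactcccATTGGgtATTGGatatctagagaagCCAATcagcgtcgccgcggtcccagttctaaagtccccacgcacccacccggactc
B2M: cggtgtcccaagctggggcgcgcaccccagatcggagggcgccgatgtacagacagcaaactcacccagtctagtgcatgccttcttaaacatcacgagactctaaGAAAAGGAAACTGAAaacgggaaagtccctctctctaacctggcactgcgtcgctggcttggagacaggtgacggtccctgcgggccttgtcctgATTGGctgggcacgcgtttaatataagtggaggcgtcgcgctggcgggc
HLA-DRB1: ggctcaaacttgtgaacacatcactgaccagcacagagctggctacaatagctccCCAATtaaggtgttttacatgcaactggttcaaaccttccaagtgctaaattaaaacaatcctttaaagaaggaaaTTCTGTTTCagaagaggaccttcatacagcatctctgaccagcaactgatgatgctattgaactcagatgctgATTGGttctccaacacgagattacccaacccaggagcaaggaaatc
CD74: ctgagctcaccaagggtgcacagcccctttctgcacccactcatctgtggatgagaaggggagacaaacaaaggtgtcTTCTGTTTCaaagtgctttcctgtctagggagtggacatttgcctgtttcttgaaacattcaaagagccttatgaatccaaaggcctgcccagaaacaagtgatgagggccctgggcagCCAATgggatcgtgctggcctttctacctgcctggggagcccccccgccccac
In HLA-B the nearest interferon motif ended 146 bases before the start and the nearest ATTGG, on either strand, 51 bases before it. In B2M these distances were 129 and 44 bases, in HLA-DRB1 110 and 41 bases, and in CD74 163 and 48 bases. In all 4 the interferon motif lay farther from the start than the nearest ATTGG. TAP1, whose promoter is not shown, had the reverse order. Its interferon motifs ended 124 and 118 bases before the start and its only ATTGG 244 bases before it.

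Levels are given in FPKM, fragments scaled by the length of the transcript and by the size of the library, which allows genes of different length to be compared within a library. FPKM is a share of a library and not an amount of RNA, so a lower value can also come with a larger share of other RNAs, and fewer cells of a type and less RNA per cell cannot be told apart in such bulk samples. How deeply each library was sequenced is unknown, since FPKM values keep no read counts. In IMP1 1202 genes were listed at 0, and in IgG 7270. Each ratio is the log2 of (FPKM + 0.1) in IMP1 over (FPKM + 0.1) in IgG, which understates the change of low genes. Across the table the middle value of this ratio was 0.40, and it was -0.78 for the 6909 genes that reached 1 FPKM in each library. With 1 library per group no difference has a replicate check. The labelled cell type was seen in both libraries, since EPCAM, KRT8, KRT18, KRT19, PGR, GATA3, FOXA1, XBP1 and CDH1 were well above 1 FPKM in each and ESR1 had 9.60 FPKM in IMP1 and 9.04 FPKM in IgG, while TFF1 and TFF3 were listed at 0 in IgG.

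On the deposited scale most of the antigen presentation genes were lower in the IMP1 precipitate than with IgG, by far more for class II than for class I, where HLA-B, HLA-C and HLA-E turned higher after rescaling to the same FPKM sum. Of the 9 genes 6 were at least 2-fold lower, 0 were at least 2-fold higher and TAP1, HLA-B and HLA-C were within 2-fold. Over all genes 29.9% were at least 2-fold lower and 39.9% at least 2-fold higher. Among the 7 members that reached 1 FPKM in each library, 4 were at least 2-fold lower, beside 44.0% of the genes at that level, where 11.5% were at least 2-fold higher. Of the 6 class I genes, which all reached that level, 3 were at least 2-fold lower, a share near that background. The median log2 ratio was -0.96 over the 6 class I genes and -5.55 over the 3 class II genes.

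**Figure D1:**
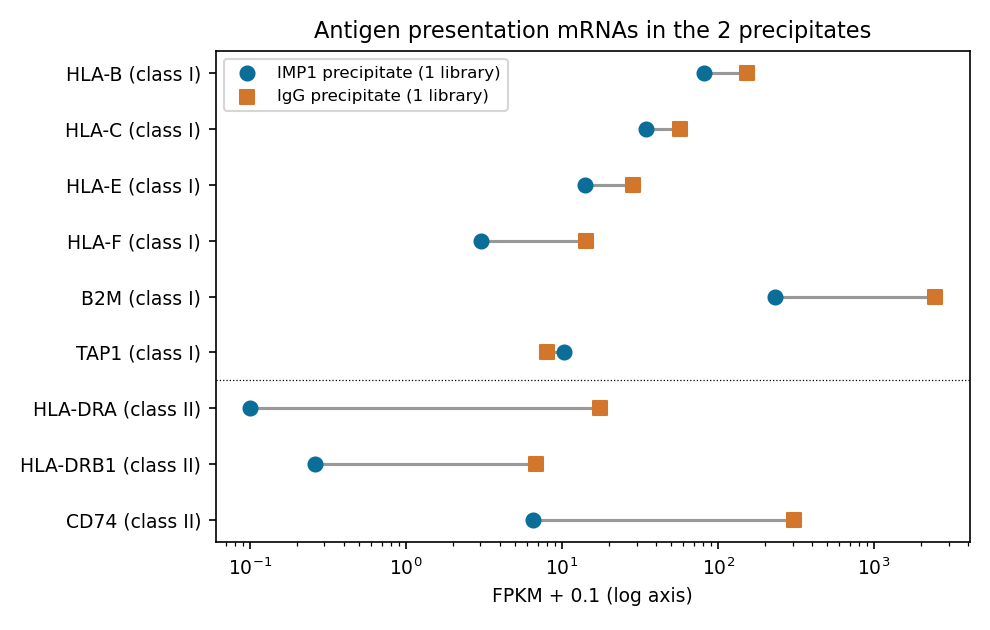
FPKM + 0.1 on a log axis for each of the 9 genes, with a circle for the IMP1 library and a square for the IgG library. The symbols lie close together for HLA-B, HLA-C, HLA-E and TAP1 and far apart for B2M, HLA-DRA, HLA-DRB1 and CD74, where HLA-DRA stands at 0 FPKM in IMP1.

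HLA-B and HLA-C encode classical heavy chains, which are polymorphic and present most peptides. HLA-B (ENSG00000234745, chromosome 6 from 31321649 to 31325414 in hg19) had 81.0 FPKM in IMP1 and 153 FPKM in IgG, a log2 ratio of -0.92. HLA-C (chromosome 6 from 31236526 to 31239907) had 34.4 FPKM in IMP1 and 56.9 FPKM in IgG, a log2 ratio of -0.72. Both differed by less than 2-fold, and their log2 ratios lay near -0.78, the median of all genes that reached 1 FPKM in each library. HLA-E (chromosome 6 from 30457244 to 30461982), a nonclassical heavy chain read by natural killer cell receptors, had 14.0 FPKM in IMP1 and 28.2 FPKM in IgG, a log2 ratio of -1.01. It lay just past the 2-fold threshold and HLA-B just short of it. HLA-F (chromosome 6 from 29690552 to 29716826), another nonclassical heavy chain, had 2.91 FPKM in IMP1 and 14.1 FPKM in IgG, which is 4.84-fold lower in IMP1. Among the heavy chain members it had the widest gap between the libraries.

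The sum of these 4 heavy chains was 132 FPKM in IMP1 and 252 FPKM in IgG, a log2 ratio of -0.93. The sign for the heavy chains depended on the scale, as the log2 ratio of the sum was -0.14 when IMP1 values were multiplied so that the median gene was equal in both libraries (a log2 shift of 0.79) and 0.94 when they were multiplied so that both libraries had the same FPKM sum (a shift of 1.88). On the latter scale HLA-B had a log2 ratio of 0.95, HLA-C of 1.15 and HLA-E of 0.86, while HLA-F stayed below 0 at -0.40. Shares within a library do not depend on the scale. HLA-B made up 61.2% of the sum of the 4 chains in IMP1 and 60.7% in IgG, HLA-C made up 26.0% and 22.5%, HLA-E 10.6% and 11.2%, and HLA-F 2.20% and 5.58%. The order HLA-B, HLA-C, HLA-E, HLA-F was the same in both libraries.

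HLA genes are near-identical paralogs, and how the authors' counting assigned reads that match several of them is not given in the sources used here, so the division between them is uncertain. The row of HLA-B also shares its locus with a clone-named gene of 7.26 FPKM in IMP1 and 8.46 FPKM in IgG.

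**Figure D2:**
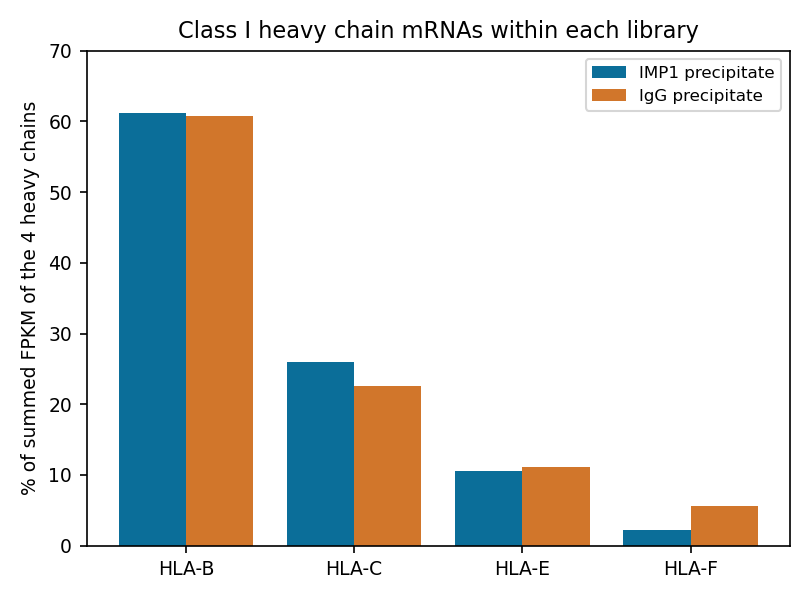
Share of each gene in the summed FPKM of the class I heavy chains HLA-B, HLA-C, HLA-E and HLA-F, in percent, for the IMP1 library and the IgG library. HLA-B held the largest share in both libraries, and HLA-F held 2.20% in IMP1 and 5.58% in IgG.

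B2M encodes the light chain of every class I molecule and lies outside the MHC, on chromosome 15 from 45003675 to 45011075 (ENSG00000166710). It had 232 FPKM in IMP1 and 2474 FPKM in IgG, which is 10.6-fold lower in IMP1, with a log2 ratio of -3.41. It stayed lower after both rescalings, with log2 ratios of -2.62 on the scale of the median gene and -1.54 on that of the same sum. B2M was the highest of the 9 genes in each library and ranked 30th of 18781 genes in IgG and 111th in IMP1. Light and heavy chains were divided unequally between the libraries. B2M was 1.76 times the sum of the 4 heavy chains in IMP1 and 9.80 times that sum in IgG. The 3 genes nearest to B2M in level in both libraries, over 2 libraries only, were MT-TC (143 and 2271 FPKM in IMP1 and IgG), FTH1 (407 and 2862 FPKM) and MT-TS1 (381 and 1647 FPKM).

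TAP1 encodes a subunit of the peptide transporter and was the exception in direction. TAP1 (chromosome 6 from 32808494 to 32827362) had 10.2 FPKM in IMP1 and 7.90 FPKM in IgG, a log2 ratio of 0.37, which became 1.16 on the scale of the median gene and 2.23 on that of the same sum. TAP2, the other subunit, had 18.8 FPKM in IMP1 and 1.45 FPKM in IgG, a log2 ratio of 3.61. The ratio of TAP1 to TAP2 was therefore 0.544 in IMP1 and 5.45 in IgG. TAP1 shares its locus with PSMB8 and PSMB9, which encode subunits of the immunoproteasome, the form of the proteasome that interferon induces. These neighbours had the opposite direction, with 3.67 FPKM in IMP1 and 26.1 FPKM in IgG for PSMB8 and 0.801 and 3.66 FPKM for PSMB9. Genes of 1 locus can share reads, so the split between TAP1 and its neighbours is uncertain.

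CD74, the invariant chain, was the most abundant of the 3 class II genes in both libraries and was far lower in IMP1. CD74 (ENSG00000019582, chromosome 5 from 149781200 to 149792492) had 6.42 FPKM in IMP1 and 305 FPKM in IgG, which is 47.5-fold lower in IMP1. It ranked 120th of all genes in IgG and 3220th in IMP1. Its log2 ratio, -5.55, was the 13th lowest among the 6909 genes that reached 1 FPKM in each library. In IgG the level of CD74 was 1.99 times that of HLA-B, and in IMP1 it was 0.0793 times that of HLA-B. The genes nearest to CD74 in level over the 2 libraries were NEAT1 (5.20 and 211 FPKM in IMP1 and IgG), LINC00338 (3.48 and 235 FPKM) and PDCD5 (6.89 and 139 FPKM).

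HLA-DRA and HLA-DRB1 encode the alpha and beta chains of HLA-DR, the most abundant class II molecule of antigen-presenting cells. HLA-DRA (chromosome 6 from 32407619 to 32412823) was listed at 0 in IMP1 and had 17.4 FPKM in IgG. Of the 1202 genes listed at 0 in IMP1 it had the 62nd highest value in IgG. HLA-DRB1 (chromosome 6 from 32546546 to 32557625) had 0.161 FPKM in IMP1 and 6.69 FPKM in IgG, which is 41.5-fold lower in IMP1. In IgG the order was CD74, HLA-DRA, HLA-DRB1, and CD74 was 12.6 times the sum of both HLA-DR chains. The 3 class II genes stayed lower in IMP1 on every scale, with log2 ratios for CD74 of -4.76 on the median-gene scale and -3.69 on the same-sum scale, and for HLA-DRB1 of -4.16 and -3.30. The class II median minus the class I median was -4.58 on the deposited scale, -4.59 on the median-gene scale and -4.60 on the same-sum scale. Each rescaling multiplied all IMP1 values by the same factor, so both medians shifted together. Only the pseudocount could change their difference, and its near-constant value is therefore no separate check of the result.

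**Figure D3:**
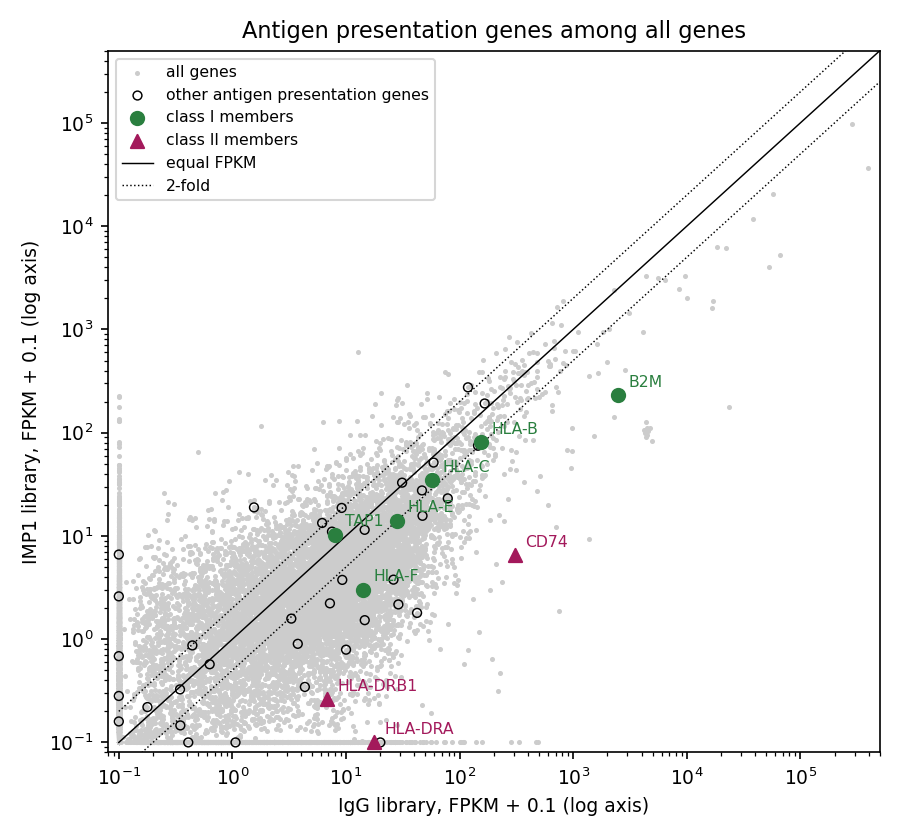
Every gene by its FPKM + 0.1 in the IgG library (horizontal) and in the IMP1 library (vertical), both on log axes, with the class I genes as circles, the class II genes as triangles and other antigen presentation genes as open circles. HLA-B, HLA-C and HLA-E sit near the lower 2-fold line, while CD74, HLA-DRA and HLA-DRB1 lie far below that line.

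The table lists 7 genes of the DR, DQ and DP chains, HLA-DRA and HLA-DRB1 among them, of which 5 were at least 2-fold lower in IMP1, 1 was at least 2-fold higher and 1 was neither. Of all genes 29.9% were lower and 39.9% higher. Only 4 of the 7 chain genes reached 1 FPKM in IgG, and none did in IMP1. The 7 genes summed to 1.22 FPKM in IMP1 and 48.9 FPKM in IgG, a sum made up mostly by HLA-DRA, HLA-DRB1 and HLA-DPA1 in IgG. HLA-DPA1, the alpha chain of HLA-DP, had 20.0 FPKM in IgG and was listed at 0 in IMP1. HLA-DQA1 had 4.24 FPKM in IgG and 0.245 FPKM in IMP1. HLA-DQA2 went the other way, with 0.585 FPKM in IMP1 and a listed 0 in IgG, and HLA-DQB1 was low in both (0.226 and 0.246 FPKM). HLA-DRB5 was listed at 0 in IMP1 and had 0.309 FPKM in IgG.

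The list of class II chains and loading factors outside the 9 genes holds 18 genes, of which 13 are listed. Of these 6 were at least 2-fold lower in IMP1 and 3 at least 2-fold higher, beside 29.9% and 39.9% of all genes, and the median log2 ratio was -0.76. The 2 chains of HLA-DM, which exchanges the invariant chain peptide for others, differed from each other. HLA-DMB had 0.691 FPKM in IMP1 and 9.91 FPKM in IgG, and HLA-DMA had 11.4 and 14.5 FPKM, though both share 1 locus with BRD2. Among the endosomal enzymes IFI30, a thiol reductase that interferon gamma induces, had 2.07 FPKM in IMP1 and 28.8 FPKM in IgG. The proteases cathepsin D (CTSD, 192 and 166 FPKM) and cathepsin B (CTSB, 27.5 and 46.6 FPKM), which lysosomes of most cells hold, were within 2-fold. The 3 higher genes were LGMN, with 18.6 FPKM in IMP1 and 9.06 FPKM in IgG, CTSL, with 2.50 FPKM and a listed 0, and HLA-DQA2.

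The list of other class I genes and peptide loading factors holds 23 genes, all of them listed. Of these 10 were at least 2-fold lower in IMP1 and 5 at least 2-fold higher, and the median log2 ratio was -0.20. Of all genes 29.9% were lower and 39.9% higher. Among genes that reached 1 FPKM in each library, which not all of the list did, the shares were 44.0% and 11.5%. On the same-sum scale 2 genes of the list were lower and 12 higher, beside 13.0% and 63.7% of all genes. The shares were 7.96% and 51.6% of genes that reached 1 FPKM in each library. Chaperones of the endoplasmic reticulum that fold many proteins were the highest of the list. Calreticulin (CALR) had 275 FPKM in IMP1 and 118 FPKM in IgG, calnexin (CANX) had 74.7 and 145 FPKM, and PDIA3 had 51.2 and 58.9 FPKM. Tapasin (TAPBP), which bridges TAP and the heavy chain, had 32.7 and 31.1 FPKM. The proteasome activator subunits that interferon gamma induces were lower in IMP1 on the deposited scale, though not on the same-sum scale, with 23.0 and 78.6 FPKM for PSME1 and 15.6 and 47.1 FPKM for PSME2. The 5 higher genes were TAP2, CALR, the stress ligand MICB (13.2 and 6.07 FPKM), the class I-like MR1 (6.50 FPKM and a listed 0) and the pseudogene HLA-J (0.182 FPKM and a listed 0).

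Each subunit of the immunoproteasome takes the place of a standard subunit, which gives a comparison within each library. PSMB8 was 0.205 times the level of its counterpart PSMB5 in IMP1 and 1.79 times in IgG. PSMB9 was 0.0259 times the level of PSMB6 in IMP1 and 0.278 times in IgG, and PSMB10 was 0.0414 and 0.138 times the level of PSMB7. In all 3 pairs the interferon-induced subunit held a larger part in IgG than in IMP1. The standard subunits were chosen for this comparison after their values were seen.

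The list of factors that switch on MHC genes holds 15 genes, of which 14 are listed, with 6 at least 2-fold lower in IMP1 and 2 at least 2-fold higher. The lower count lay between the shares that 29.9% of all genes and 44.0% of genes that reached 1 FPKM in each library would give. CIITA, the coactivator that class II genes require, had 0.0360 FPKM in IMP1 and was listed at 0 in IgG, the library with the higher class II level. NLRC5, its counterpart for class I genes, had 3.85 FPKM in IMP1 and 2.29 FPKM in IgG. IRF1, an interferon-induced factor that binds class I promoters, had 1.33 and 22.7 FPKM. Other high genes of the list were RELA (11.8 and 21.8 FPKM), RFXANK (11.8 and 5.86 FPKM) and CREB1 (4.54 and 10.4 FPKM). The 2 higher genes were RFXANK and RFXAP (0.402 FPKM and a listed 0), subunits of the RFX complex that binds the shared promoter module. On the same-sum scale 2 genes of this list, IRF1 among them, were at least 2-fold lower and 7 were at least 2-fold higher. On that scale 13.0% of all genes were lower and 63.7% higher. Of genes that reached 1 FPKM in each library 7.96% and 51.6% were.

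Interferon response genes, like the class II genes and B2M, were mostly far lower in IMP1. Of the 20 genes of that list 16 are listed, with 13 at least 2-fold lower in IMP1 and 1, IRF7, at least 2-fold higher (1.56 FPKM and a listed 0). Of all genes 29.9% were at least 2-fold lower and 39.9% at least 2-fold higher. The list summed to 229 FPKM in IMP1 and 2456 FPKM in IgG, with a range from 0 to 110 FPKM in IMP1 and from 0 to 980 FPKM in IgG. IFI6 had 110 and 980 FPKM, IFI27 had 12.2 and 713 FPKM, IFIT1 had 2.93 and 184 FPKM, BST2 had 82.1 and 166 FPKM, and ISG15 had 9.45 and 120 FPKM in IMP1 and IgG. The median log2 ratio of the list, -4.02, was between those of the class I and the class II genes. On the same-sum scale 10 genes of the list were still at least 2-fold lower, beside 13.0% of all genes. The part of the interferon response in the antigen presentation values was not tested.

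Professional antigen-presenting and other immune cells are the usual source of class II mRNA. Of 16 markers of such cells 10, among them PTPRC, ITGAX, CD79A and LYZ, are not listed, and all 6 listed ones, among them CD83, CD40, CD163 and CD14, were at 0 in IgG. In IMP1 these 6 were between 0.103 and 0.885 FPKM, with a sum of 2.71 FPKM. Each of the 6 is at least 2-fold higher in IMP1 on the pseudocount scale, with no fold since IgG is listed at 0. Of all 18781 genes 39.9% were at least 2-fold higher and 29.9% lower, and 7270 were listed at 0 in IgG. Other genes of immune cells, chosen after their values were seen, were at low levels in IgG, with 0 and 1.41 FPKM in IMP1 and IgG for FCGR2B, 0 and 0.425 FPKM for CD79B, 0 and 0.334 FPKM for CD22, and 0.153 and 0.673 FPKM for ITGAL. The part of immune cells in the class II values was not tested.

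Markers of mesenchymal cells were mostly higher in IgG. Of 15 such markers 14 are listed and 12 of them were at least 2-fold lower in IMP1, beside 29.9% of all genes. The list of mesenchymal markers was chosen after the values were seen. The 14 markers summed to 5.69 FPKM in IMP1 and 242 FPKM in IgG, from 0 to 2.36 FPKM in IMP1 and from 0 to 79.7 FPKM in IgG. FN1 had 1.30 and 79.7 FPKM, COL1A1 had 0.791 and 24.4 FPKM, and DCN, LUM and ZEB2 had 37.5, 22.0 and 21.3 FPKM in IgG and were listed at 0 in IMP1. Of the list FAP was at 0 in IgG, and COL1A2, SPARC and PDGFRB were the other markers at 0 in IMP1. Luminal epithelial markers went the other way, with 7 of 12 at least 2-fold higher in IMP1, 0 lower and sums of 1269 and 571 FPKM. The shares of all genes were 39.9% higher and 29.9% lower. Among genes that reached 1 FPKM in each library they were 11.5% and 44.0%. Of the luminal markers KRT19 had 371 and 78.8 FPKM, XBP1 had 345 and 226 FPKM, KRT8 had 162 and 76.8 FPKM, KRT18 had 143 and 25.8 FPKM, and EPCAM had 48.4 and 55.1 FPKM. The part of these markers in the class II values was not tested.

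**Figure D4:**
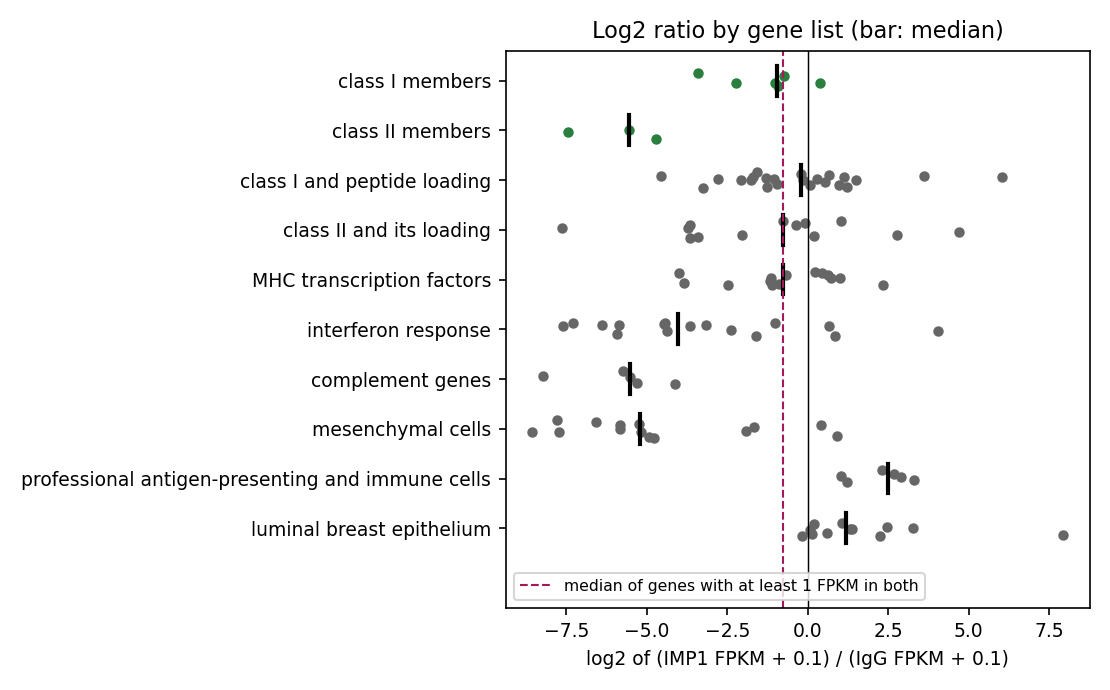
Log2 ratio of (FPKM + 0.1) in IMP1 over IgG for each gene of the class I and class II members and of 8 other lists, with a bar at each median and a dashed line at -0.78, the median of genes that reached 1 FPKM in each library. The class II members, the interferon response, complement and mesenchymal lists have medians below -4, while luminal markers have theirs at 1.19.

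Position within the MHC was compared with the genes that lie between the outermost HLA genes of the table, on chromosome 6 from 29690552 to 33054978 in hg19. The interval holds 141 rows, of which 28 are HLA genes or genes of the lists and 113 are not. Of the 113 others 23 were at least 2-fold lower in IMP1, 33 at least 2-fold higher and 57 neither, with a median log2 ratio of 0.21. Over all genes 29.9% were lower and 39.9% higher, with a median of 0.40. Of the 33 higher ones among the 113, 27 were listed at 0 in IgG. Among the 42 others that reached 1 FPKM in each library the median log2 ratio was -0.16, with 5 lower and 2 higher. Of all genes at that level 44.0% were lower and 11.5% higher, with a median of -0.78. Abundant neighbours such as TUBB (102 and 69.9 FPKM in IMP1 and IgG), the clone-named XXbac-BPG252P9.9 of the same locus (107 and 78.9 FPKM), IER3 (53.7 and 90.8 FPKM) and CLIC1 (32.7 and 47.1 FPKM) were within 2-fold. RPP21 (21.0 and 2.02 FPKM), TCF19 (5.19 and 2.42 FPKM) and HSPA1A (7.96 and 3.98 FPKM) had the largest ratios among those with at least 1 FPKM in both, and SKIV2L (1.25 and 13.7 FPKM), TRIM39 (2.78 and 14.7 FPKM) and ABCF1 (5.11 and 17.4 FPKM) the smallest.

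The interval also holds complement genes, which innate immune signals induce. CFB, complement factor B, had the highest FPKM of all non-HLA genes of the interval, with 0.548 FPKM in IMP1 and 192 FPKM in IgG. C4A had 0.289 and 6.75 FPKM, C4B had 0.0227 and 5.53 FPKM, and C2 had 3.88 FPKM in IgG and a listed 0 in IMP1. C3, which lies outside the MHC, had 2.34 and 130 FPKM. All 5 of these were at least 2-fold lower in IMP1, beside 29.9% of all genes, and the list was chosen after the values were seen. C4A and C4B are near-identical, so the division between them is uncertain.

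**Figure D5:**
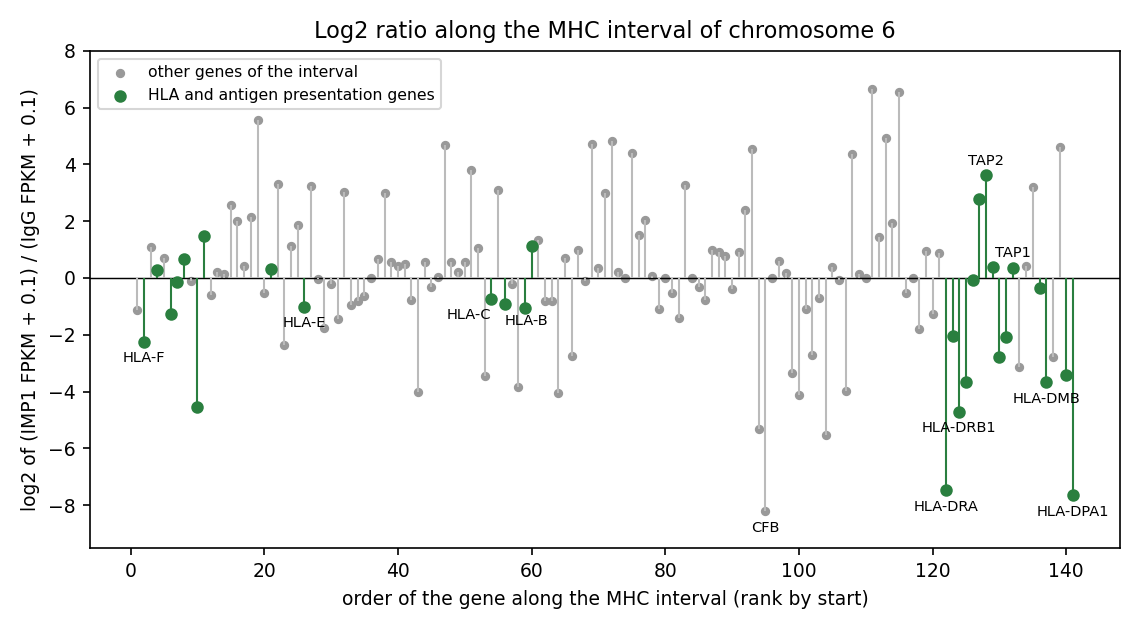
Log2 ratio of (FPKM + 0.1) in IMP1 over IgG for the 141 rows of the MHC interval, in the order of their start on chromosome 6. CFB, HLA-DRA, HLA-DRB1 and HLA-DPA1 stand far below 0 among neighbours on both sides of 0, and TAP2 stands above it.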

How the data were processed

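T47D lysates were precipitated with anti-IMP1 antibody or IgG, and the RNA was sequenced at Shanghai Biotechnology Corporation, with 1 library per group. Gene levels of each library were deposited by the authors as FPKM, with zeros written as 1e-05, which were set back to 0. The build hg19 comes from the submitters' processing notes, while the aligner, counter and annotation are not given in the sources used here. The locus column starts from 0, so 1 was added. The table also holds the authors' ratios, p-values, q-values and direction, and 3 further files hold subsets of it; these were not used. All 9 identifiers matched their current symbol. Genes and lists were chosen with earlier results of these data known. The genes named were the 9, the 5 highest of each list (and the higher ones, where 5 or fewer), the highest and the most extreme genes of the MHC interval, and the 3 nearest genes to B2M and CD74 in log2(FPKM + 0.1). Genes outside this rule, the mesenchymal, complement and standard proteasome lists, and the promoter motifs were chosen after values or sequences were seen. Some genes of the lists are not reported here. With 1 library per group no test was run. Counting was tested on simulated data. Python 3.11.15, numpy 2.4.6, pandas 2.3.3 and matplotlib 3.10.9 were used.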

Additional observations from a re-analysis of the deposited data

How the results depend on the processing

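No paired analysis was possible because each group has 1 library, and for the same reason no replicate could be left out. After rescaling to the median gene the class I median was -0.17, the class II median -4.76, the heavy chain sum -0.14 and 1 member, TAP1, was at least 2-fold higher. After rescaling to the same FPKM sum the class I median turned to 0.91 and the heavy chain sum to 0.94, the class II median was -3.69 and 2 members, TAP1 and HLA-C, were at least 2-fold higher. These changes follow from the shift itself. With a pseudocount of 1 the class II median was -4.20 and its difference from the class I median -3.27, since low IMP1 values are pulled up. The number of members at least 2-fold lower was between 4 and 6 under all alternatives. The other values under a pseudocount of 0.01, filters at 1 FPKM in both and 0.5 FPKM in a library, a threshold of 4-fold and the highest row per gene name moved by at most 1.5-fold. The filter at 1 FPKM in both leaves CD74 as the only class II gene. Depth is unknown, so a listed 0 cannot be turned into a limit.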

Other observations

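The genes in this paragraph were chosen after their values were seen. SAA1 and SAA2, which encode serum amyloid A proteins, had 284 and 158 FPKM in IgG and were both listed at 0 in IMP1, the 4th and 5th highest IgG values among the genes listed at 0 there. IFITM3, an interferon-induced membrane protein, had 13.9 FPKM in IMP1 and 248 FPKM in IgG. IFNGR1, the ligand-binding chain of the interferon gamma receptor, had 1.65 FPKM in IMP1 and 42.9 FPKM in IgG, while IFNGR2, its other chain, had 9.06 and 13.9 FPKM. Of the kinases bound to that receptor, JAK1 had 3.61 and 10.6 FPKM, and JAK2 had 0.236 FPKM in IMP1 and was listed at 0 in IgG.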
